A study of Mus musculus with 121 samples.

Results

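The genes described here are 10 mouse genes of the AMP-activated protein kinase (AMPK) and of the NAD-sirtuin pathway. They are Prkaa1, Prkaa2, Prkab1, Prkab2 and Prkag1, which encode subunits of AMPK, Stk11, which encodes its activating kinase LKB1, Nampt, and the sirtuin genes Sirt1, Sirt3 and Sirt6. They were chosen by symbol, through their Ensembl identifiers. No measured value entered the rule, but earlier results of these data were known when they were chosen. They are 10 of the 31053 gene identifiers counted, and all 10 were among the 13292 genes that were tested because they reached 1 CPM (counts scaled to a library total of 1000000) in 3 or more libraries.

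AMPK is a complex of a catalytic alpha, a scaffolding beta and a nucleotide-binding gamma subunit. It senses a fall in cellular energy and is switched on by phosphorylation, mainly by LKB1, so that its activity need not follow the amount of its messenger RNA. Nampt encodes the rate-limiting enzyme of the route that makes NAD from nicotinamide, and the sirtuins are deacylases that use this NAD as a substrate. The route links metabolism to the circadian clock, because in several tissues Nampt is a target of the clock factors CLOCK and BMAL1, which bind the E-box.

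RNA was measured in an immortalized line of ear fibroblasts from Per2::Luc knock-in mice (genotype PER2::LUC sv, passage P25), in which the Per2 gene carries luciferase. The same line served every group. HL cells received 3 cycles of 12 h in high medium (25 mM glucose with insulin) and 12 h in low medium (2 mM glucose without insulin), LH cells the same media in the opposite order, and HH cells high medium throughout. After 12 h of free running, RNA was collected 6 times at intervals of 4 h. HL had 21 libraries, LH 22 and HH 19, with 2 to 4 for each treatment and collection. The methods of the study describe its replicates in general as biological, while the labels tie no library to a culture, so p-values measure the spread between these libraries, whatever its source.

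Libraries held 104912 to 11619095 counts, and the shallowest, LH replicate 2 of the second collection, was followed by one of 2136819. The 10 fibroblast markers were all present, led by Col1a2 and Col1a1, and their summed level was 9861 to 38620.4 CPM. Of the 16 markers of other cell types, Krt5 and Myod1 were at 0 in every library, and Kdr alone was abundant (172 CPM ± 47.2, SD, n = 62) while the other endothelial markers Pecam1 and Cdh5 averaged 0.276 and 0.0672 CPM. The 4 immune markers summed to 124 CPM in the shallowest library and to at most 7.06 in any HL or HH library. For 40 libraries, all of LH and all of HL outside the first collection, the read summary of the study gives the library number another name than the sample title does, or does not list it. Results follow the titles, and results by library number, which name 19 libraries of each treatment, stand beside them. The HH time course and the comparison of HH with HL at the first collection do not depend on this choice of names. The clock hours in the labels do not run in steps of 4 h in any treatment. In the order of collection they are 20, 12, 4, 8, 12 and 16 in HL and HH, and 20, 12, 16, 20, 12 and 16 in LH, so that the second and the fifth collection carry the same hour. Hours given here assume the order of the collection numbers and the interval of the study's methods, and JTK and cosine results rest on that order. The tests across collections and those of mean levels use the collections as unordered groups. In 5 libraries the median correlation with the other libraries was under 0.9 (log2(CPM + 1) of genes with a mean of at least 20 CPM), and these stood apart: replicates 1 and 2 of LH and replicate 3 of HL at the second collection, replicate 2 of HL at the fifth and replicate 3 of HH at the sixth.

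The E-box is shown because it is the sequence that the clock factors bind. Promoter windows from RefSeq (build GRCm38.p6, 250 bases before to 50 after a start site) were found for all 10 genes, 12 windows in all. They were searched for the palindrome CACGTG, which reads the same on both strands. It occurred in 7.15% of all 32851 windows, in 5 of the 12 windows found for clock reference genes, and in 1 of the 12 windows of the genes described here, that of Sirt1, which held 2 copies. The copies begin 115 and 43 bases before the RefSeq start site (chr10:63339135-63339160 and chr10:63339063-63339088, minus strand). This site lies inside the longer Sirt1 gene interval given below, which comes from GENCODE. For comparison, 1 copy each from Tef (chr15:81802536-81802561, plus strand) and Cry1 (chr10:85185099-85185124, minus strand), both clock genes, is printed, with the E-box in capitals. Of the 7 that passed an adjusted p of 0.05 across the collections of HH (edgeR), Tef and Cry1 held it and Nr1d1, Nr1d2, Dbp, Per3 and Arntl did not, while Per1 and Ciart held it and did not pass.
Sirt1, 115 bases before the start: ggcgcccggcCACGTGacccggcgtg
Sirt1, 43 bases before the start: aggggcgggtCACGTGacggggttta
Tef, 127 bases before the start: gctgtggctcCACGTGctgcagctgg
Cry1, 60 bases before the start: tgccggtggtCACGTGgggtgcatgc
The Nampt window held no CACGTG, which says only that these letters are not in these 300 bases.

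The 10 genes differed widely in level, and the means stood in the same order in each treatment (plot of levels in 62 libraries). In this 3′ digital gene expression assay each transcript is read from its 3′ end, so that a count does not scale with transcript length. Whether the 3′ ends of different genes are read equally well was not tested, so the order is one of CPM. Stk11 was highest, at 137 CPM ± 18.3 (SD, n = 62), followed by Prkag1 at 112 ± 20.4. Below them stood Prkaa1 at 29.5 ± 6.53, Nampt at 23.7 ± 9.51, Sirt1 at 15.0 ± 3.69, Sirt6 at 13.9 ± 3.34, Prkab1 at 8.66 ± 2.64, Prkab2 at 6.64 ± 2.68 and Sirt3 at 3.94 ± 1.95 CPM. Prkaa2 closed the order at 0.341 ± 0.368 CPM. Prkag1 exceeded Prkaa1 in 62 of 62 libraries, the only neighbours whose ranges did not overlap. Sirt1 and Sirt6 could not be ordered, since Sirt1 was higher in 33 of 62 libraries. Stk11 exceeded Prkag1, Prkaa1 exceeded Nampt, Nampt exceeded Sirt1 and Prkab2 exceeded Sirt3 in 51 of 62 libraries each, Sirt6 exceeded Prkab1 in 57, and Prkab1 exceeded Prkab2 in 43.

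**Figure D1:**
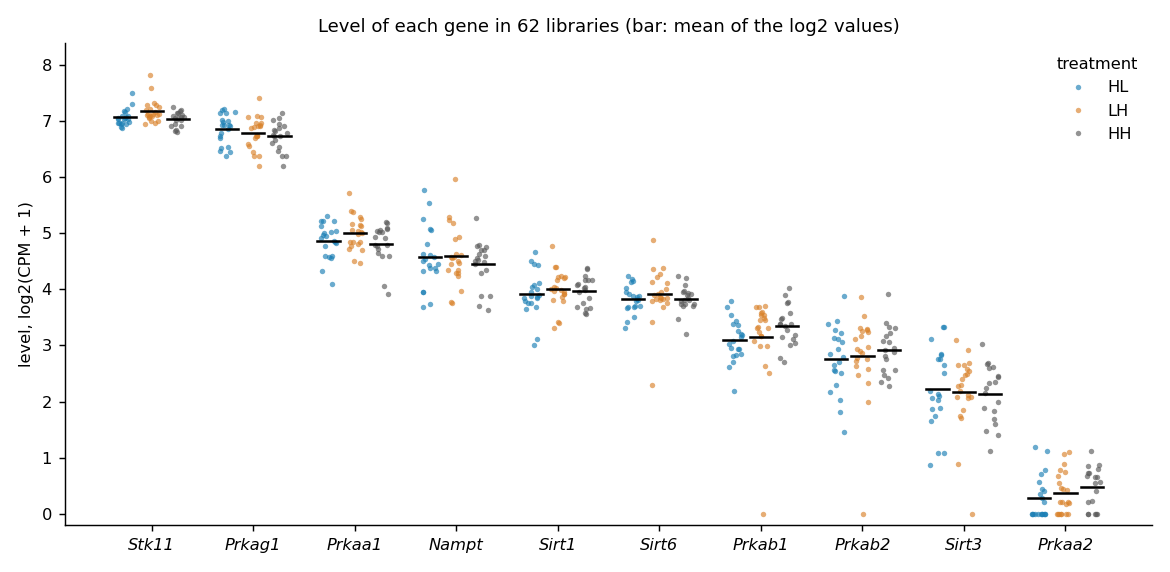
Level of each gene, as log2(CPM + 1), in every library of HL (21), LH (22) and HH (19), with a bar at the mean of the log2 values. Stk11 and Prkag1 lie above the other 8 genes, Prkaa2 lies near 0, and the 3 treatments overlap for every gene.

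Counts for the catalytic subunit were almost wholly those of the alpha 1 gene. Prkaa1 (chr15:5143861-5181899, plus strand, GRCm38) ranged from 14.1 to 51.4 CPM, with 10450 counts summed over the libraries. Prkaa2 (chr4:105029874-105109890, minus strand), the alpha 2 gene, had 124 counts in all, was at 0 in 23 libraries and reached 1 CPM in 5. In the 61 libraries with at least 1000000 counts, Prkaa1 made up 98.8% ± 1.45 (SD) of the alpha counts, and 92.4% in the lowest library. The share averaged 99.0% ± 1.35 in HL, 98.9% ± 1.13 in LH and 98.3% ± 1.81 for HH libraries, and these means lie within 1 SD of each other.

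The beta and gamma subunits were each represented by more than 1 gene. Prkab1 (chr5:116013586-116024508, minus strand), the beta 1 gene, made up 57.1% ± 10.5 of the beta counts, and Prkab2 (chr3:97658193-97673812, plus strand) the rest, with means of the share between 56.4% and 58.3% in the 3 treatments. Prkag1 (chr15:98812797-98831521, minus strand), the gamma 1 gene, made up 76.4% ± 5.94 of the gamma counts. Nearly all other gamma counts came from Prkag2, the gamma 2 gene, at 33.7 CPM ± 7.58, while Prkag3, the gamma 3 gene, averaged 0.488 CPM. The gamma 1 share averaged 77.9% ± 6.44 in HL, 75.7% ± 6.53 in LH and 75.5% ± 4.49 for HH libraries, again closer to each other than the spread within a treatment.

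LKB1 works in a complex with a STRAD pseudokinase and a CAB39 scaffold. Stk11 (chr10:80115803-80130682, plus strand) had a far higher level than Strada (6.27 CPM ± 2.54), Stradb (10.3 ± 2.94) and Cab39 (23.0 ± 4.82). Cab39l, which encodes a CAB39 relative, was the most uneven of these, at 42.9 CPM ± 28.4 with a range of 9.53 to 200.1. Camkk2, another kinase that activates AMPK, averaged 50 CPM ± 10, and Camkk1 2.30 ± 1.26.

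In the NAD route, Nampt (chr12:32819545-32853349, plus strand) stood among a few well-represented genes. Nmnat2, one of the enzymes that complete NAD from the product of NAMPT, averaged 48.3 CPM ± 9.23, while Nmnat1 and Nmnat3 averaged 2.56 and 1.29 CPM. The entry enzymes of the other routes were low, with Naprt at 0.972 CPM, Nmrk1 at 4.22, Qprt at 0.0633 and Nmrk2 at 0 in every library. Among genes of NAD use, Parp3 (93.5 CPM ± 18.6) and Parp1 (32.6 ± 8.78), of the ADP-ribosyltransferase family, led, and the NAD hydrolase gene Cd38 averaged 0.540. Of the sirtuins, Sirt2, whose product is mainly cytosolic, was highest at 46.9 CPM ± 6.92. It was followed by Sirt7 (21.7 ± 5.00), Sirt1 (chr10:63319005-63381704, minus strand) and Sirt6 (chr10:81621785-81627797, minus strand), all nuclear. The mitochondrial sirtuins Sirt3 (chr7:140863666-140882309, minus strand), Sirt5 (2.68 ± 1.57) and Sirt4 (0.484 ± 0.535) were lowest.

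For 6 of the genes another annotated gene lies on the opposite strand over the 3′ end, where this assay reads, and whether counting used the strand is not given in the sources used here. The partners of Prkaa1 (Gm15938), Prkab1 (Gm14508), Prkab2 (Gm17651) and Prkag1 (B130046B21Rik) averaged at most 0.282 CPM. The 3′ end of Stk11 overlaps that of Cbarp (13.4 CPM), and Sirt3 shares 707 bases with Ric8a, which at 28.1 CPM was the more abundant of that pair, so the values of Sirt3 are uncertain.

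The repeated runs gave a measure of the spread from sequencing. In 55 libraries with at least 1000000 counts in both runs, the SD of log2(CPM + 1) between runs of a library was 0.08 for Stk11, 0.09 for Prkag1, 0.17 for Prkaa1, 0.21 for Nampt, 0.23 for Sirt1 and Sirt6, 0.25 for Prkab1, 0.32 for Prkaa2, 0.36 for Prkab2 and 0.40 for Sirt3. Between libraries of 1 treatment and collection it was 0.13 for Stk11, 0.28 for Prkag1, 0.32 for Prkaa1, Prkab1 and Sirt1, 0.39 for Prkaa2 and Nampt, 0.26 for Sirt6, 0.49 for Prkab2 and 0.59 for Sirt3. Stk11 was the steadiest gene of the 10, and for Prkag1 the spread between libraries was well above that between runs. For Sirt6, Stk11, Prkaa2, Prkab1 and Sirt1 the values were closer, with less than 0.1 between them. The SD between runs is that of a single run, while the SD between libraries is that of summed runs, which are deeper. The share of the spread that came from sequencing therefore cannot be read from these values directly.

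The first question was whether the mean level over the time course depended on the metabolic pattern. None of the 10 genes passed the thresholds of the study (p under 0.01 over 3 treatments and under 0.05 in the pair, edgeR's quasi-likelihood test with collection as a term) in any pair. Among all 13292 genes, 1.20% passed for HH against HL, 1.16% for LH against HL and 0.910% for HH against LH. By library number, again 0 of the 10 passed, beside 0.568%, 1.34% and 1.63% of 13198 genes. At an unadjusted p under 0.05 for the pair, 2, 0 and 2 of the 10 passed by titles, beside 7.42%, 5.69% and 5.23% of all genes. By library number 0, 1 and 3 did, beside 3.62%, 7.63% and 10.2%. DESeq2 called 0 of the 10 in each pair at the thresholds of the study, beside 1.22%, 1.26% and 0.873% of all genes.

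For HH against HL, the 2 genes were Prkag1 and Prkab1, with opposite signs. Prkag1 had 117 CPM ± 20.7 in HL (82.7 to 148, median 121, n = 21) and 107 ± 18.1 in HH (72.8 to 139.8, median 107, n = 19), a log2 fold change of -0.20 (SE 0.09, 95% interval -0.39 to -0.02, p = 0.033, adjusted p = 0.643, edgeR). Prkab1 had 7.80 CPM ± 2.28 in HL (3.54 to 12.9, median 7.49, n = 21) and 9.53 ± 2.61 in HH (5.50 to 15.2, median 9.40, n = 19), a log2 fold change of 0.27 (SE 0.13, 0.01 to 0.52, p = 0.0411, adjusted p = 0.656, edgeR). In both genes the treatments overlapped over most of their ranges. By library number the values were -0.11 (p = 0.241) for Prkag1 and 0.08 (p = 0.562) for Prkab1 (edgeR, n = 19 each). Without the 5 libraries that stood apart, they were -0.14 (p = 0.134) and 0.28 (p = 0.0322, n = 19 and n = 18).

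For HH against LH, Stk11 and Prkaa1 were the genes under 0.05. Stk11 had 146 CPM ± 23.0 in LH (lowest 122, median 139, n = 22) and 131 ± 11.8 in HH (111 to 151, median 132, n = 19), a log2 fold change of -0.17 (SE 0.07, -0.30 to -0.04, p = 0.0117, adjusted p = 0.883, edgeR). The 2 highest LH values, of which the lower was 191 CPM, came from replicates 1 and 2 of the second collection, both of which stood apart. Without the 5 libraries that stood apart the difference was -0.09 (p = 0.0743, edgeR, n = 18 and n = 20). Prkaa1 had 31.8 CPM ± 7.07 in LH (21.2 to 51.4, median 31.3, n = 22) and 27.8 ± 5.98 in HH (14.1 to 35.7, median 29.3, n = 19), a log2 fold change of -0.21 (SE 0.10, p = 0.0478, adjusted p = 0.883, edgeR), which was -0.12 (p = 0.21) without these libraries. By library number they were -0.13 (p = 0.0498) and -0.06 (p = 0.591, edgeR, n = 19 each). The other genes under 0.05 for this pair by library number were Prkag1, at -0.22 (SE 0.09, p = 0.0184, adjusted p = 0.389, n = 19 each), and Prkab1, at 0.31 (SE 0.13, p = 0.0248, adjusted p = 0.414, n = 19 each). For LH against HL, Prkab1 was 0.22 (-0.03 to 0.47) by titles and -0.23 (-0.50 to 0.04) by library number, so that its sign turned with the names. In this pair the sign also turned for Prkaa1 (0.12 by titles, -0.09 by library number), Prkaa2 (0.49, -0.22) and Prkab2 (0.13, -0.09). Prkag1 (-0.1, 0.11), Nampt (-0.01, 0.33), Sirt1 (0.05, -0.1) and Sirt6 (0.02, -0.11) turned as well. Stk11 (0.09, 0.05) and Sirt3 (-0.09, -0.14) kept their sign.

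The remaining genes differed in how closely their differences could be measured. Prkaa2, whose counts were low, gave 0.76 (-0.38 to 1.90) for HH against HL, 0.49 (-0.65 to 1.62) for LH against HL and 0.27 (-0.83 to 1.38) for HH against LH. Sirt3 gave -0.29 (-0.77 to 0.18), -0.09 (-0.55 to 0.36) and -0.20 (-0.67 to 0.26) in the same order. Apart from these, the 95% intervals of all pairs by titles lay between -0.52 and 0.52 on the log2 scale (plot of differences between treatments). For Sirt1 the differences were -0.03 (-0.25 to 0.18) for HH against HL, 0.05 (-0.15 to 0.26) for LH against HL and -0.09 (-0.30 to 0.13) for HH against LH. Sirt6 gave -0.05 (-0.25 to 0.14), 0.02 (-0.17 to 0.22) and -0.08 (-0.27 to 0.12) in the same order. Nampt gave -0.18 (-0.52 to 0.15), -0.01 (-0.33 to 0.31) and -0.17 (-0.50 to 0.16), with levels of 24.5 CPM ± 10.6 in HL, 24.7 ± 10.8 in LH and 21.7 ± 6.24 for HH libraries. By library number the Nampt difference of LH from HL was 0.33 (0.01 to 0.64, p = 0.042, adjusted p = 0.637, edgeR, n = 19 each), the largest of the 10 in that pair. The median of the 10 differences by titles was -0.07, 0.07 and -0.09 for the 3 pairs, beside 0.00 over all genes in each pair. By library number it was -0.08, -0.09 and -0.05, again beside 0.00, so that the sign for LH against HL turned with the names.

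**Figure D2:**
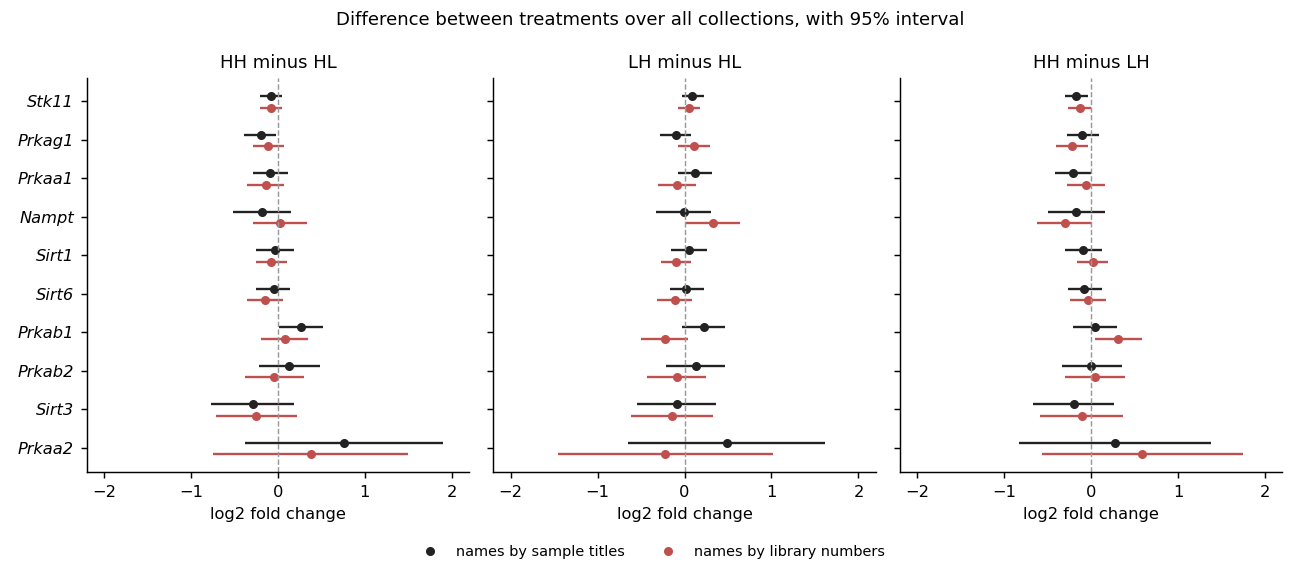
Log2 fold change between treatments over all collections for each gene, with its 95% interval, for libraries named by sample titles (black) and by library numbers (red). Most intervals include 0 under both sets of names, and those of Prkaa2 and Sirt3 are the widest.

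At the first collection, HH and HL could be compared with no doubt about names, in 4 and 3 libraries (plot of the first collection). None of the 10 genes passed an adjusted p of 0.05 in edgeR, nor did any of the 13292 genes (0.00%). At an unadjusted p under 0.05, 2 of the 10 passed, beside 6.42% of all genes, and DESeq2 called 0 of the 10 and 0.00% of all genes. The 2 were again Prkag1 and Prkab1, with the same signs as over the whole time course, which includes these libraries. Prkag1 had 148, 115 and 121 CPM in HL and 106, 107, 92.6 and 109.8 CPM in HH. Every HH value was below every HL value, with a log2 fold change of -0.35 (SE 0.13, -0.61 to -0.08, adjusted p = 0.691, edgeR). Groups did not overlap for 1 of the 10 genes, beside 6.08% of all genes. Prkab1 had 7.15, 6.13 and 9.79 CPM in HL and 12.7, 13.9, 12.5 and 9.42 CPM in HH. Here 1 HH value was below the highest of HL, with a log2 fold change of 0.60 (SE 0.28, 0.03 to 1.18, adjusted p = 0.773, edgeR). Prkaa1, at 26.3, 31.4 and 27.4 CPM in HL and 29.5, 32.1, 33.3 and 32.7 in HH, and Stk11, at 133, 125 and 124 in HL and 132, 111, 134 and 145 in HH, overlapped. Their log2 fold changes were 0.13 (-0.22 to 0.48) and -0.01 (-0.27 to 0.25). Nampt, at 14.5, 11.9 and 22.9 CPM in HL and 13.7, 21.5, 22.5 and 22.1 in HH, gave 0.23 (-0.27 to 0.73), a wide interval at this number of libraries.

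**Figure D3:**
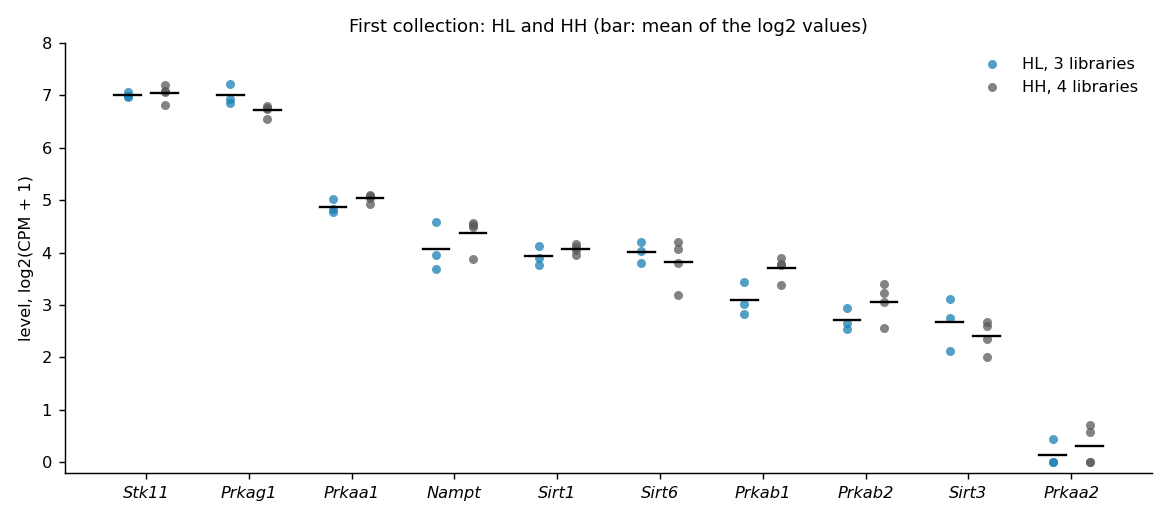
Level of each gene, as log2(CPM + 1), in the 3 HL and 4 HH libraries of the first collection, with a bar at the mean of the log2 values. Prkag1 is the gene whose HL and HH libraries do not overlap, and Prkab1 overlaps by 1 HH library.

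The next question was whether these genes followed a rhythm during free running. By JTK_CYCLE (24 h, p under 0.01), 0 of the 10 passed in any treatment, beside 0.466%, 0.933% and 1.22% of all genes for HL, LH and HH. By library number, 0 of the 10 passed in HL and LH, beside 1.03% and 1.31%. The smallest p was 0.0753 for Prkab2 in HL, 0.0956 for Nampt in LH and 0.186 for Nampt in HH. The clock itself was visible in the same libraries. In HH, Nr1d1, which encodes the clock repressor REV-ERB alpha, rose from 12.9 CPM ± 1.71 at the first collection to 157 ± 8.07 after 8 h and fell to 10.9 ± 7.46 after 20 h (JTK_CYCLE, exact null distribution, p = 2.36e-05). Of 10 clock reference genes, JTK called 2 for HL, 4 for LH and 7 for HH by titles. By library number it called 9 for HL and 5 for LH, so that the order of the treatments in this count depends on the names. In its own set of core clock genes, the study reported the most rhythmic ones for HL and the fewest for LH. That is the order by library number and not the order by titles. Which names are right was not tested.

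The HH time courses of the 10 genes were shallow beside those of Nr1d1 and of Dbp, a clock output gene (plot of HH over time). The fitted peak-to-trough range in HH was 3.95 on the log2 scale for Nr1d1 and 3.88 for Dbp. It was 0.01 for Sirt1, 0.03 for Stk11, 0.08 for Prkaa1, 0.21 for Sirt6 and 0.29 for Prkag1. Fitted ranges were wider for Prkab1 (0.49), Prkaa2 (0.52), Prkab2 (0.54), Nampt (0.75) and Sirt3 (0.91). For the cosine, 1 of the 10 had an unadjusted p under 0.05 in each treatment by titles, beside 5.07%, 8.50% and 10.1% of all genes for HL, LH and HH. It was Prkab2 in HL (p = 0.0334, adjusted p = 0.969, edgeR, n = 21) and Nampt in LH (p = 0.033, adjusted p = 0.544, edgeR, n = 22) and HH (p = 0.0116, adjusted p = 0.353, edgeR, n = 19). By library number 0 of the 10 did in HL and LH, beside 8.22% and 6.88%. Sirt1, which holds both E-boxes, had means between 11.3 and 17.5 CPM over the HH collections.

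**Figure D4:**
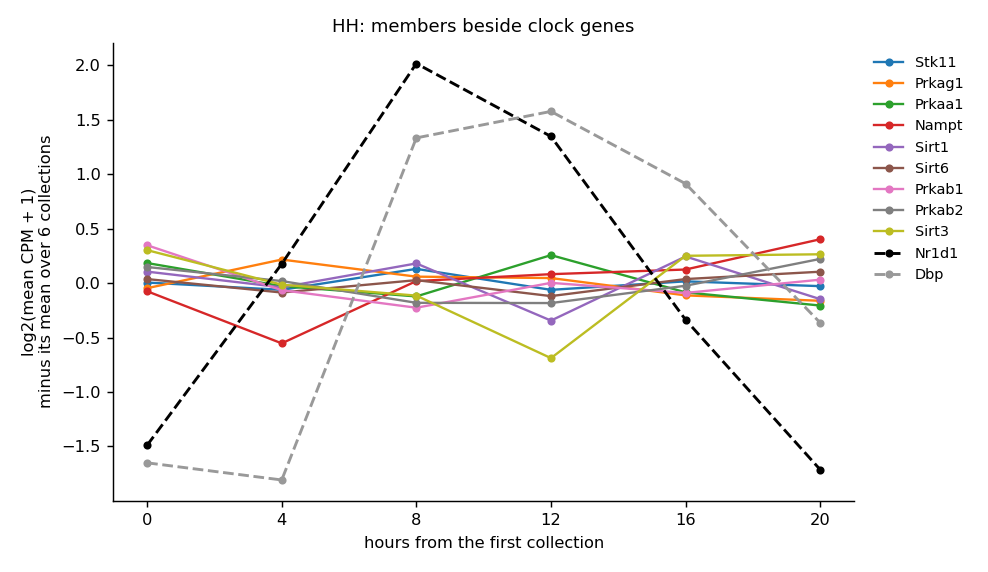
Mean level in HH at each collection, as log2(mean CPM + 1) minus its mean over the 6 collections, against hours from the first collection, for 9 genes and for the clock genes Nr1d1 and Dbp (dashed). Nr1d1 and Dbp swing by over 3 log2 units, and the other genes by at most about 1.

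A change over time of any shape was tested across the 6 collections of each treatment. None of the 10 genes passed an adjusted p of 0.05 (edgeR), beside 0.00% of all genes for HL, 2.14% for LH and 0.436% for HH. By library number it was 0 of the 10, beside 0.394% in HL and 0.121% in LH. At an unadjusted p under 0.05, 1 of the 10 passed in each treatment, beside 5.83%, 16.6% and 9.23% of all genes, and it was Nampt each time. By library number 0 of the 10 did in HL or LH, beside 7.80% and 9.59%. DESeq2 called 1 of the 10 in LH (Nampt), beside 6.72% of all genes, and 0 of the 10 in HL and HH, beside 0.528% and 2.34%. Nampt in LH also passed in edgeR with the second sequencing run only (beside 12.3% of all genes), with no filter on low genes (4.51%), with RLE scaling (2.38%), without the replicates numbered 2 (1.95%) and, with Stk11, without those numbered 4 (6.05%).

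In HH, where both sources give the libraries the same names but the labelled hour of the second collection is out of sequence, Nampt had 13.7, 21.5, 22.5 and 22.1 CPM at the first collection, then 11.4, 12.1 and 18.6 after 4 h and 13.7, 23.8 and 26.4 after 8 h. It had 19.4 and 25.1 CPM after 12 h, 23.3, 20.8 and 25 after 16 h, and 21.6, 26.8, 25.9 and 37.9 after 20 h. The mean was lowest after 4 h (14.0 ± 3.99, n = 3) and highest after 20 h (28.1 ± 6.95, n = 4), and these collections did not overlap. Over the collections of HH p was 0.0171 (adjusted p = 0.413, edgeR, n = 19). Such a gap between the highest and lowest collection was common, since it was met in HH by 4 of the 10 genes (Prkag1, Nampt, Sirt1 and Sirt3) beside 44.2% of all genes. Without the HH library that stood apart p was 0.0206, and without the replicates numbered 3 it was 0.129.

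In LH, the highest Nampt value belonged to a library that stood apart. The values were 61.6, 38.1 and 29.0 CPM after 4 h, against 12.5 to 23.6 CPM in the collections at 0, 8 and 16 h. They overlapped the collections at 12 h (12.7, 35.2, 14.7 and 21.0 CPM) and at 20 h (36.8, 23.7, 22.8 and 29.6 CPM). The mean was 42.9 ± 16.8 (n = 3) after 4 h against 18.3 ± 4.22 (n = 4) after 16 h. Over the collections of LH p was 0.00153 (adjusted p = 0.0619, edgeR, n = 22). Highest and lowest collection did not overlap in LH for 3 of the 10 genes (Prkaa1, Prkaa2 and Nampt), beside 30.2% of all genes, and by library number for 8 of the 10, beside 70.2%, where the collection at 16 h holds 1 library. The 61.6 and 38.1 came from libraries that stood apart, and without these, which leaves 1 library at 4 h, p was 0.175. Without the library of 38.1 CPM alone, which rests on 4 counts, p was 0.00204. By library number p was 0.222, and 0.0455 without the libraries that stood apart. In HL, the 4 values after 4 h were 26.9, 32.6, 53.7 and 20.9 CPM, and those after 20 h were 19.1, 22.2, 45.4 and 12.4, so that 1 library of each set was far above the rest. Over the collections of HL p was 0.0323 (adjusted p = 0.831, edgeR, n = 21). Without the libraries that stood apart, p was 0.145 in HL, and by library number 0.297.

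**Figure D5:**
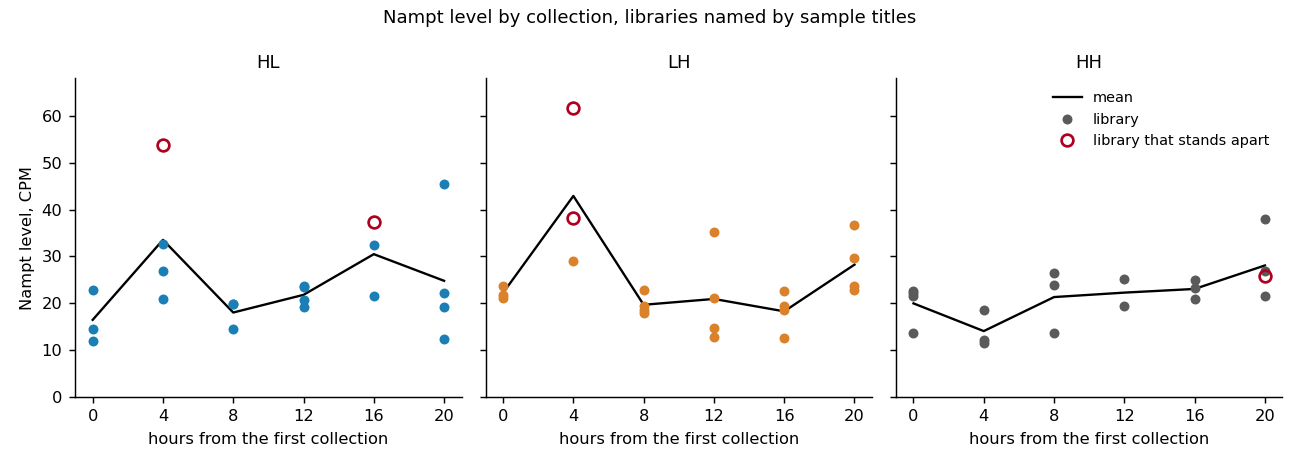
Nampt level (CPM) against hours from the first collection in HL, LH and HH, 1 point per library, with a line through the means and red rings on the 5 libraries that stood apart. The highest values of HL at 4 h and of LH at 4 h, 53.7 and 61.6 CPM, are ringed, and HH runs from a mean of 14.0 at 4 h to 28.1 at 20 h.

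Across the libraries that stood apart, Nampt was 25.9 to 61.6 CPM (median 38.1, n = 5), against 11.4 to 45.4 (median 21.6, n = 57) in the others. Prkab2 was lower in them, at 0 to 4.91 CPM (median 2.52) against 3.10 to 14.1 (median 6.67), and Sirt1 was at 7.06 to 14.5 (median 9.69) against 7.72 to 26.2 (median 15.0). The values at 0 belong to the library of 104912 counts, in which 1 count is close to 10 CPM. Cab39l was also uneven there, with its 2 highest values, 200.1 and 124 CPM, in LH replicate 1 of the second collection and HL replicate 2 of the fifth, where Nampt was 61.6 and 37.3. In the others that stood apart it was 99.4, 38.7 and 9.53 CPM, the last being its lowest value. HL replicate 3 of the sixth collection, which did not stand apart, had 101 CPM, with Nampt at 45.4. The part of the libraries that stood apart in the results beyond the values without them was not tested.

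Whether rhythms differed between treatments was tested by giving each treatment its own cosine curve of 24 h. None of the 10 genes passed an adjusted p of 0.05 in edgeR, beside 0.150% of all genes by titles and 0.00758% by library number. At an unadjusted p under 0.05, 1 of the 10 passed, beside 10.5% of all genes, and DESeq2 called 0, beside 0.451%. By library number 0 did, beside 5.63%. The gene was Prkab2 (adjusted p = 0.461, edgeR), whose fitted range on the log2 scale was 0.91 for HL, 0.19 for LH and 0.54 for HH. In HL its values after 12 h were 7.35, 9.85, 9.44 and 8.29 CPM, all above the 4.94, 3.10, 3.49 and 4.72 CPM after 20 h. This gap between highest and lowest collection was met in HL by 1 of the 10 genes, beside 27.9% of all genes, and by library number for 4 of the 10 (Prkaa2, Prkab1, Stk11 and Sirt1), beside 40.0%.

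Other genes of the pathway were read from lists fixed with the 10. Of 63 other genes of AMPK, LKB1, NAD and sirtuin biology, 59 were tested, and 0 passed the main threshold of any of the 11 tests by titles. At an unadjusted p under 0.05, between 1 and 2 of the 59 (1.69% and 3.39%) passed in 10 of these tests, and 10 (16.9%) passed across the collections of LH, where 16.6% of all genes did. Of all genes, 7.42%, 5.69% and 5.23% passed for the levels of HH against HL, LH against HL and HH against LH, 2.68%, 3.83% and 4.71% by JTK in HL, LH and HH, 5.83% and 9.23% across the collections of HL and HH, 10.5% for the rhythm difference and 6.42% at the first collection. The share of the 59 was above that of all genes for JTK in HL and slightly so across the collections of LH, and below it in the other tests. By library number JTK called 2 of them in HL, Acaca, which encodes the AMPK substrate acetyl-CoA carboxylase 1, and Sirt7, and 1 in LH, Nmrk1, a nicotinamide riboside kinase gene, beside 1.03% and 1.31% of all genes. The smallest p among the AMPK substrates was that of Ulk1, an autophagy kinase gene, across the collections of LH (adjusted p = 0.0604, edgeR), and among the other subunits and LKB1 partners that of Cab39l in the same test (adjusted p = 0.0848). Among the AMPK-related kinases it was Snrk, at 53.8 CPM ± 10.8 in HL (n = 21) and 64.7 ± 13.3 in HH (n = 19, log2 fold change 0.23, SE 0.08, p = 0.0067, adjusted p = 0.506, edgeR). The smallest p of the lists for NAD synthesis, NAD use, other sirtuins and regulators of SIRT1 belonged to Nmnat2 (0.0415), Parp3 (0.0281), both across the collections of LH, Sirt2 (0.025, JTK in HL) and Ccar2 (0.043, HH against LH).

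Correlations among the 10 genes across libraries were low. Over the 61 libraries with at least 1000000 counts, the highest Spearman correlation between any pair of the 10 was 0.44, between Prkaa1 and Nampt, followed by 0.36 between Stk11 and Nampt, and the lowest was -0.30, between Prkab2 and Prkag1 (TMM-scaled log2(CPM + 1), libraries of all treatments and collections, differing in depth). The closest of 5925 genes of at least 20 CPM are named as a description, since a search over so many genes yields high values by itself. Prkag1 was most like Kctd2 (0.82) and Pdrg1 (0.78), Nampt most like Gng12 (0.74) and Tgfbr3 (0.73), Prkaa1 most like Chpf2 (0.66) and Ndst2 (0.65), and Stk11 most like Grina (0.66) and Tapbp (0.65).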

How the data were processed

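A 3′ digital gene expression protocol gave 62 libraries. The authors deposited counts per gene that were not normalized, as 121 sets from 2 sequencing runs, and runs of a library were summed. The submitters' processing notes name bcl2fastq, STAR 2.6.0a, HTSeq 0.9.1 and mm10, while the strand setting is not given in the sources used here. Reads on no feature were 18.4% to 29.1% of a set and were left out.

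Genes were kept at 1 CPM or more in 3 or more libraries and tested with edgeR 4.0.16 (TMM, quasi-likelihood) in R 4.3.3. Rhythms were tested with JTK_CYCLE rewritten in Python (24 h, phases in steps of 2 h, null distribution of the collections for every phase), and both were tested on simulated data. DESeq2 1.42.0 was an alternative. Adjusted p is Benjamini-Hochberg over all genes tested. Time was taken from the order of collection at steps of 4 h, which the clock hours in the labels contradict. Symbols and positions came from GENCODE M21 (GRCm38, the build also called mm10), which named 30934 of 31053 identifiers.

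The genes, lists and tests were chosen with earlier results of these data known. Named beside the 10 genes are those of each list of AMPK, LKB1, NAD and sirtuin genes past a threshold or, where none passed by titles, with the smallest p. Also named are the 2 genes most like each member of at least 20 CPM, Nr1d1 and Dbp. The cell type markers were not named by this rule. Of these, Col3a1 passed across the collections of LH (adjusted p = 0.0402, edgeR), where 2.14% of all genes did. Genes of the lists given for their level alone, and Txnip and Nfkbia, were chosen after their values were seen.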

Additional observations from a re-analysis of the deposited data

Results flagged for a closer look

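By titles, 9 groups of 1 treatment and collection held 4 libraries. Over the 10 genes this gave 90 sets of 4 values, which share libraries, and 4 of the 90 held a value farther from the others than Dixon's 95% limit, where chance gives about 1 in 20. Prkab1 in HH replicate 2 of the sixth collection was 15.2 CPM, against 7.06 to 8.13 in the other libraries. Nampt in HH replicate 1 of the first collection was 13.7 CPM, against 21.5 to 22.5. Sirt3 in LH replicate 3 of the fifth collection was 0.855 CPM, from 5 counts, against 4.53 to 4.96. Prkaa2 in HL replicate 1 of the sixth collection was 0.319 CPM, from 2 counts, against 0 in the other 3. None of these libraries is among the 5 that stood apart.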

How the results depend on the processing

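For the 10 genes, 191 of 202 counts under alternatives stayed at 0. Some alternatives called 0 of all 13292 genes, as the levels with adjusted p did, and others called few, so a count of 0 says little there. The exceptions concerned the collections, the rhythm difference and the first collection. Across the collections of LH the count was 1 (Nampt) with the second sequencing run only (12.3% of all genes called), with no filter on low genes (4.51%), with RLE scaling (2.38%), with DESeq2 (6.72%) and at an unadjusted p under 0.05 (16.6%), against 0 and 2.14% as reported. It was 0 to 2 when replicates were left out in turn (Nampt without replicate 2, Nampt and Stk11 without replicate 4). Without the LH replicates numbered 1, among them the library at 61.6 CPM, p of Nampt was 0.539. At an unadjusted p under 0.05 the count was 1 in the collections of HL and of HH, 1 for the rhythm difference and 2 at the first collection. Of 854 differences under alternatives, 58 changed sign, none of them called, and 11 of these were among the 30 by library number. Values called across the collections or for the rhythm difference carry no sign.

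With the replicate block (the replicate number as a term) the count was 0 in each of the 8 edgeR tests, and JTK takes no block. The labels tie no number to a shared culture or day. Same-numbered libraries of a collection had a median correlation of deviations of -0.02, with 19 of 52 pairs above 0.1, so that numbers were not taken as pairs.

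Counts over all genes moved more. From 160, 154 and 121 genes, the levels ran from 0 (adjusted p) to 399, 387 and 335 (no filter). The rhythm counts, which were 62, 124 and 162 by JTK, fell to 0, 0 and 1 with adjusted p. They were 136 for HL and 173 for LH by library number, 109 for HL and 204 for LH with the tied null, which also raised HH by over 1.5 times, and 133, 338 and 388 with an edgeR cosine fit in place of JTK. Leaving out each replicate in turn gave 36 to 80 for HL, 73 to 107 for LH and 56 to 98 for HH, and HL was 32 in the second sequencing run and 38 among genes with a mean of at least 10 CPM. By library number and without the libraries that stood apart, HL was 136 and LH rose by over 1.5 times. The collections ran from 0 to 1029 in HL (0), 12 to 2210 in LH (284) and 9 to 1227 in HH (58). The rhythm difference ran from 1 to 1393 (20) and the first collection from 0 to 853 (0). Leaving out the libraries that stood apart, the tied null of JTK and the unadjusted counts by library number were chosen after seeing the data. Depth limits Prkaa2 and Sirt3 most.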

Other observations

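Txnip, a gene known to be induced by glucose whose protein limits glucose uptake, was chosen after its values were seen. Prkag1 ran against it across the 61 libraries of at least 1000000 counts (Pearson r = -0.78, Spearman rho = -0.79, TMM-scaled log2(CPM + 1)). The relation was also present within each treatment, with r = -0.77 in HL (n = 21), -0.75 in LH (n = 21) and -0.83 in HH (n = 19). It was -0.76 without the 2 libraries farthest from the median of Prkag1 and -0.75 without the libraries that stood apart. Libraries share treatment, collection and sequencing run, and these values are given as a description.

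Nampt ran with Nfkbia, which encodes the inhibitor of NF-kappa-B and is induced by it, with r = 0.82 over all 61 libraries, 0.93 in HL, 0.82 in LH and 0.66 in HH. Without the libraries that stood apart it was 0.74. Nampt against Nr1d1 gave a Spearman rho of -0.17 over the same 61 libraries. By sample titles, Nr1d1 in HL after 8 h was 24.1 CPM ± 13.8 (n = 3), and by library number 162 ± 45.5 (n = 3), against 157 ± 8.07 (n = 3) in HH. Nampt at that time was 18.0 ± 3.11 by titles and 22.2 ± 11.7 by number.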
